A study of Homo sapiens with 9 samples.

Results

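The comparison set the 6 ATAC-seq libraries made after antisense oligonucleotides against the long non-coding RNA NESPR, ASO2 and ASO10, against the 3 libraries of the negative control oligonucleotide NCA, with each of the 2 oligonucleotides given equal weight. Its members are the open regions in which all 6 ASO libraries lay on one side of all 3 NCA libraries. Of 148797 regions in the deposited table, 119417 had enough counts to be tested. All 6 ASO libraries lay above the NCA libraries in 3902 tested regions (3.27%) and below them in 2940 (2.46%). A further 356 and 411 such regions were among the 29380 that were too weak to test.

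The cells were SK-N-BE(2)c, a MYCN-amplified human neuroblastoma line, and all 9 libraries carry the same transfection, with oligonucleotide at 100 nM in a lipofectamine reagent for 48 h. The 3 groups differ only in the oligonucleotide, which was ASO2, ASO10 or NCA, with 3 libraries each. A single line limits the groups as a model, and the labels do not say whether the libraries of a group came from separate cultures, so the p-values measure the spread between these libraries, which may be technical. NESPR RNA was not analysed here. Totals ran from 7293565 to 10948569 counts per library.

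In ATAC-seq the transposase Tn5 cuts DNA that is not wrapped in nucleosomes, so the counts of a region follow how open it is. Open regions at gene starts are mostly promoters. Those inside introns and between genes include enhancers, which act on promoters over long distances, so the nearest gene is a label of position and need not be the gene a region controls. Sympathetic neuroblasts, the cells from which neuroblastoma arises, hold a transcription factor network of the adrenergic type, and large adhesion and axon guidance genes, with very long introns, are known for their roles in neuronal cells.

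The pooled difference was tested across all regions with edgeR's quasi-likelihood test at a Benjamini-Hochberg adjusted p under 0.05, which called 2866 regions higher (2.4% of those tested) and 709 lower (0.594%) under the ASOs. Regions that were both called and separated numbered 1834 higher (1.54%) and 502 lower (0.42%). They are the regions called higher and lower from here on. The separation was read from the libraries that entered the test, so the fold changes of these regions describe them and support nothing by themselves. The median log2 fold change was 0.86 over the higher regions and -0.76 over the lower ones, against -0.011 over all tested regions. The higher regions changed by more than 2-fold in 673 cases and the lower ones in 136. The separated regions without a call were 2068 above and 2438 below, so their balance between the directions was not that of the calls. With limma-voom in place of edgeR the called and separated regions numbered 1063 higher and 303 lower, and without NCA replicate 1 they numbered 1338 and 277. Separation was then read from the libraries kept, and only 1068 and 186 of the latter were among the 1834 and 502. The calls alone fell to 1567 higher and 301 lower without NCA replicate 1 and to 1549 and 397 without NCA replicate 2, and the lower calls to 357 without NCA replicate 3 and 471 without ASO10 replicate 1. The call in the main direction was kept in every one of 9 fits that each left out a library by 714 higher and 72 lower regions.

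Few of these regions lay at promoters. A window from 250 bases before to 50 bases after the start of a protein-coding gene (RefSeq, GRCh38.p14) was overlapped by 65 higher regions (3.54%) and 23 lower ones (4.6%), against 8.87% of all tested regions on the main chromosomes. The 250 bases before the start are printed 5′ to 3′ for the 3 regions with the largest rise and the 3 with the largest fall among those that overlap such a window, a choice made after the values were seen, because these are the gene starts where a region changed most. Capitals mark the GC box (GGGCGG, or CCGCCC on the other strand) and the CCAAT box (CCAAT, or ATTGG on the other strand), 2 common promoter elements. The first 3 lay wholly under higher regions.
TAF6L promoter, chr11:62771146-62771395, plus strand: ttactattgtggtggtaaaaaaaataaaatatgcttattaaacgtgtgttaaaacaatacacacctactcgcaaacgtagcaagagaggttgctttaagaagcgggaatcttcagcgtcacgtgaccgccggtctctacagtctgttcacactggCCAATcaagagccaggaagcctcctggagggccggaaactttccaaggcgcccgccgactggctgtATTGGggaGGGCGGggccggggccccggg
DLG4 promoter, chr17:7205188-7205437, minus strand: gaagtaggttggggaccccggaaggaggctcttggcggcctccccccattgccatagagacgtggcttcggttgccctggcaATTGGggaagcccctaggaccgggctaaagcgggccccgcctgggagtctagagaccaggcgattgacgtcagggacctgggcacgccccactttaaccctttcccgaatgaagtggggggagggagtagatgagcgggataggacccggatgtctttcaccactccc
ZNF136 promoter, chr19:12162846-12163095, plus strand: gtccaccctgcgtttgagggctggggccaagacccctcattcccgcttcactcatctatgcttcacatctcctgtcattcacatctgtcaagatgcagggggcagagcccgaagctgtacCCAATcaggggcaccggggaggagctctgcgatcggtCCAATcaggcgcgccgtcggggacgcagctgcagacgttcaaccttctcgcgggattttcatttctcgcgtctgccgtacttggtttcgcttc
The next 3 overlapped lower regions, which covered the first 102 of the 250 printed bases at LGI2, the last 122 at GTPBP2 and all of them at SLC25A21. The marked boxes of LGI2 lay outside its region.
LGI2 promoter, chr4:25030947-25031196, minus strand: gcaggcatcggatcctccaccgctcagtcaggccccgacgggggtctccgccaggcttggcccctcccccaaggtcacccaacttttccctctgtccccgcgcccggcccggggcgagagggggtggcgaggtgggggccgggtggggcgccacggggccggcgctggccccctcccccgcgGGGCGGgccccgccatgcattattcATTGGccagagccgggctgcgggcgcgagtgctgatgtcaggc
GTPBP2 promoter, chr6:43627342-43627591, minus strand: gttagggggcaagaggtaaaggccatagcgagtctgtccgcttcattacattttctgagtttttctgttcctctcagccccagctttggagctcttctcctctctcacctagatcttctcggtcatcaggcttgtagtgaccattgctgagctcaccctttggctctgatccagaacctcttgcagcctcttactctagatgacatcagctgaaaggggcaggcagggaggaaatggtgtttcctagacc
SLC25A21 promoter, chr14:37172607-37172856, minus strand: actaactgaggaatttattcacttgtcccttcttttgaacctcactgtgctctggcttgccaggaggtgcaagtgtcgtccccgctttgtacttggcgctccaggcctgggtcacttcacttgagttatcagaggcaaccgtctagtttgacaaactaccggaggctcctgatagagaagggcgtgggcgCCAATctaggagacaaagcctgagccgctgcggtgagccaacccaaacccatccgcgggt
A match is a description of these letters and not a site in use. All 3 windows under higher regions held a CCAAT box, as did those of LGI2 and SLC25A21.

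The promoter region of TAF6L, which encodes a subunit of the histone acetyltransferase complex SAGA, had 8.76, 9.96 and 8.40 CPM (counts scaled by TMM to a common library size) in NCA, 15.3, 12.9 and 16 under ASO2, and 14.9, 14.8 and 15.6 under ASO10. The groups did not overlap, and both oligonucleotides gave much the same level. The log2 fold change was 0.72 ± 0.16 (SE; edgeR adjusted p = 0.00101). On chromosome 11 the region, 62771000 to 62771987, also covers the end of TMEM223, so either gene could be meant. The promoter region of DLG4, the gene of the postsynaptic scaffold PSD-95 on chromosome 17 (7204794 to 7205586), rose by 0.68 ± 0.15 on the log2 scale (adjusted p = 0.00131). It lies inside the gene, 11539 bases from the nearest gene end, and the printed window is 1 of 5 start windows listed for DLG4. The promoter region of the zinc finger gene ZNF136 on chromosome 19 (12162728 to 12163563) rose by 0.63 ± 0.14 (adjusted p = 7.3e-04). None of these 3 calls was lost when any library was left out. The lower promoter regions were weaker. LGI2, which encodes a secreted leucine-rich repeat protein, had a log2 fold change of -1.37 ± 0.40 (adjusted p = 0.0277) and lost its call in 5 of the 9 fits that each left out a library, with adjusted p up to 0.298 (without NCA replicate 1). GTPBP2, a GTPase gene, and SLC25A21, which encodes a mitochondrial carrier, each lost their calls in 8 of the 9 fits, with adjusted p up to 0.186 (without NCA replicate 2) and 0.247 (without NCA replicate 3). The GTPBP2 region lies inside the gene, 2077 bases from the nearest gene end, and the printed window is 1 of 2 listed for GTPBP2.

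Over the table of promoter windows, 53.7% of 22183 windows held a GC box and 32.7% a CCAAT box. Among the 13985 windows under a tested region these shares were 69.5% and 34.1%. The 95 windows under higher regions, which belong to 77 genes, held a GC box in 74.7% and a CCAAT box in 48.4%. The 26 windows under lower regions, of 24 genes, held them in 53.8% and 38.5%. Windows of the same gene overlap and are not independent, and no test was made of these shares. The median GC content of the windows was 64.4% under higher and 59.4% under lower regions, against 66.0% under tested regions.

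Most of the called regions lay away from gene ends. Each region on a main chromosome was put in 1 of 4 classes: at most 1 kb from the start or end of a protein-coding gene, otherwise inside such a gene, otherwise within 100 kb, or farther. Gene ends held 12.3% of the tested regions, 4.42% of the higher regions and 9.4% of the lower ones. Gene interiors held 40.9%, 42.4% and 44.0%. The flank within 100 kb held 26.7%, 17.3% and 28.4%. Places over 100 kb from any protein-coding gene held 20.1% of tested regions, 35.9% of the higher ones (658) and 18.2% of the lower ones (91).

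The genes around the higher regions were few and long. The median number of protein-coding genes within 500 kb was 3 for higher regions and 7 for both lower and all tested regions. No such gene lay within 500 kb of 16.1% of the higher regions, 3.2% of the lower ones and 7.37% of all tested. Where a region lay inside a gene, that gene had a median length of 306 kb for the higher regions, 132 kb for the lower ones and 122 kb for all tested. Called regions were also stronger and wider than most, and the part of depth in their calling was not tested. The median was 3.19 log2 CPM over the higher regions, 2.84 over the lower ones and 1.51 over all tested, and the median widths were 892, 777 and 485 bases. Among regions over 3 log2 CPM alone, gene ends held 7.45% of the higher, 12.3% of the lower and 39.7% of all tested regions, and places over 100 kb from a gene held 34.1%, 18.0% and 14.7%. Within strong regions the higher regions were thus farther from the tested ones in both shares. Of the 714 higher regions whose call was kept in all 9 fits that left out a library, 9 lay at gene ends and 291 over 100 kb from a gene.

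Among the separated regions that were not called, those above NCA lay closer in position to all tested regions than the higher regions did. Of the 2064 on the main chromosomes above NCA, 11.1% lay at gene ends and 24.6% over 100 kb from a gene. Of the 2420 below, 10.1% and 17.8% did. The median log2 fold change was 0.72 above and -0.72 below, at 2.03 and 1.66 log2 CPM, so these regions had fewer counts than the called ones. The rule is a strict inequality, and its edge is fine. The called region just inside it, at PPP3CA on chromosome 4 (101191122 to 101192041), had its highest ASO library and its lowest NCA library both at 9.66 CPM, with a ratio of 1.000446. The called region just outside it, 175 kb from CDH12 on chromosome 5 (21573450 to 21575434), had its lowest ASO library and its highest NCA library both at 15.8 CPM, with a ratio of 0.999804. A gap of at least 1.2 times, a demand chosen after seeing the data, was met by 804 higher and 190 lower regions.

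Neighbours on the chromosome moved with the called regions to a lesser degree. The nearest tested region on each side of a higher region had a median log2 fold change of 0.21, and 66.9% of these neighbours were above 0, against 49.0% around all tested regions. Of the neighbours of higher regions 7.02% were themselves called higher and separated, against 1.53% around all tested regions. Around lower regions the median was -0.076, 42.4% were above 0, and 2.26% were called lower and separated against 0.426%. Neighbouring regions can be parts of a single open stretch, so they are not separate evidence.

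**Figure D1:**
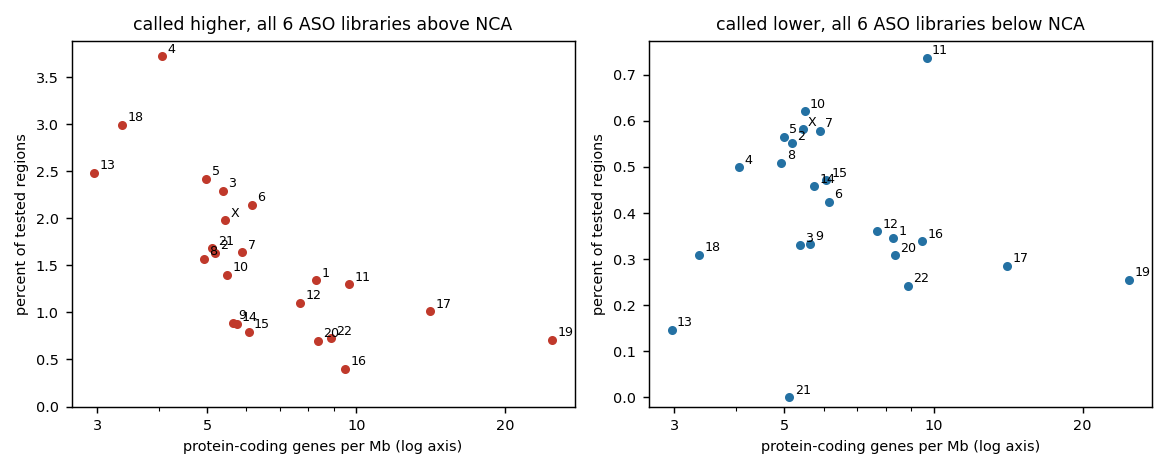
Percent of tested regions called higher (left) and lower (right) and separated on each chromosome (y axis) against protein-coding genes per Mb (x axis), with 1 point per chromosome. The gene-poor chromosomes 4, 18 and 13 sit at 3.72%, 2.99% and 2.48% higher, while the lower regions show no such order.

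The chromosomes differed in their share of higher regions. Chromosome 4, on which NESPR lies, had the largest share, with 179 of 4814 tested regions (3.72%), followed by chromosome 18 with 2.99%, chromosome 13 with 2.48%, chromosome 5 with 2.42% and chromosome 3 with 2.29%. The smallest shares among chromosomes with any higher region were 0.4% on chromosome 16, 0.699% on chromosome 20, 0.709% on chromosome 19 and 0.725% on chromosome 22. Over 23 chromosomes, with Y left out, the share of higher regions had a Spearman rho of -0.795 with protein-coding genes per Mb, as the plot of shares by chromosome shows. The same rho was -0.118 for lower regions. The chromosomes share the libraries and differ in base composition, so these values are descriptions.

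The largest differences lay in weak regions with almost no counts in NCA. Among regions over 1 log2 CPM on average, the highest was at 17319614 to 17320173 on chromosome 9, inside CNTLN, which encodes the centrosomal protein centlein. It had 0.644, 0.504 and 0 CPM in NCA, 4.21, 7.83 and 3.58 under ASO2, and 2.23, 2.39 and 2.34 under ASO10 (log2 fold change 3.18 ± 0.50 SE, adjusted p = 4.1e-07). The next was inside AGBL4, a gene of a tubulin deglutamylase, on chromosome 1 (49641315 to 49641743). Its NCA libraries had 0.386, 0 and 0.34 CPM, while the ASO libraries ran from 0.569 to 5.14 (log2 fold change 3.17 ± 0.64, adjusted p = 1.6e-04). A region 482 kb from KLHL1, an actin-binding protein gene of neurons, on chromosome 13 (69217767 to 69218288) rose by 2.93 ± 0.48 (adjusted p = 1.4e-06). A region inside ZFHX4, a zinc finger homeobox gene, on chromosome 8 rose by 2.86 ± 0.60 (adjusted p = 3.8e-04).

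In these 4 regions each NCA library held between 0 and 8 counts, and every ASO library lay higher. The regions 33.5 kb from GRB14, an adaptor of insulin receptor signalling, and inside SYT1, the calcium sensor of synaptic vesicle release, followed with 2.36 ± 0.57 and 2.27 ± 0.54. GRB14 lost its call without NCA replicate 1 (adjusted p = 0.0508) and SYT1 without NCA replicate 2 (adjusted p = 0.0522). All 6 lost it with limma-voom, where the adjusted p ran from 0.0943 at CNTLN to 0.334 at GRB14. Fitted fold changes at such counts depend on the prior count and on single NCA libraries. Without NCA replicate 3 the log2 fold change was 4.09 at KLHL1 and 2.57 at CNTLN, and without NCA replicate 1 it was 3.77 at CNTLN, so their size is uncertain.

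Among regions over 1 log2 CPM on average, the calls of the largest falls depended on single NCA libraries. A region inside GALNT14, which encodes a mucin-type O-glycosylation enzyme, on chromosome 2 (30943167 to 30943575) had 2.83, 5.30 and 2.61 CPM in NCA, 0.421, 1.29 and 1.65 under ASO2, and 0.938, 0.683 and 1.17 under ASO10 (log2 fold change -1.77 ± 0.43, adjusted p = 0.00411). NCA replicate 2 was the highest library there, and without it the call was lost (-1.39, adjusted p = 0.246). The other 5 of the 6 largest falls were 45.3 kb from LCTL (-1.65), inside TNS1 (-1.61), 9.82 kb from FBXO33 (-1.59), at TBC1D7-LOC100130357 (-1.57) and inside ALKBH3 (-1.56), a DNA repair dioxygenase gene. Each lost its call without at least 1 NCA library. The adjusted p reached 0.180 at LCTL without NCA replicate 3, 0.178 at TNS1 without NCA replicate 3, 0.238 at FBXO33 without NCA replicate 2, 0.303 at TBC1D7-LOC100130357 without NCA replicate 2, and 0.0837 at ALKBH3 without NCA replicate 1. LCTL also lost it without NCA replicate 2 (log2 fold change -1.66, adjusted p = 0.0679), TNS1 without NCA replicate 1 (-1.63, 0.0858) and FBXO33 without NCA replicate 1 (-1.58, 0.0876), with nearly the same fold change as in all libraries.

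**Figure D2:**
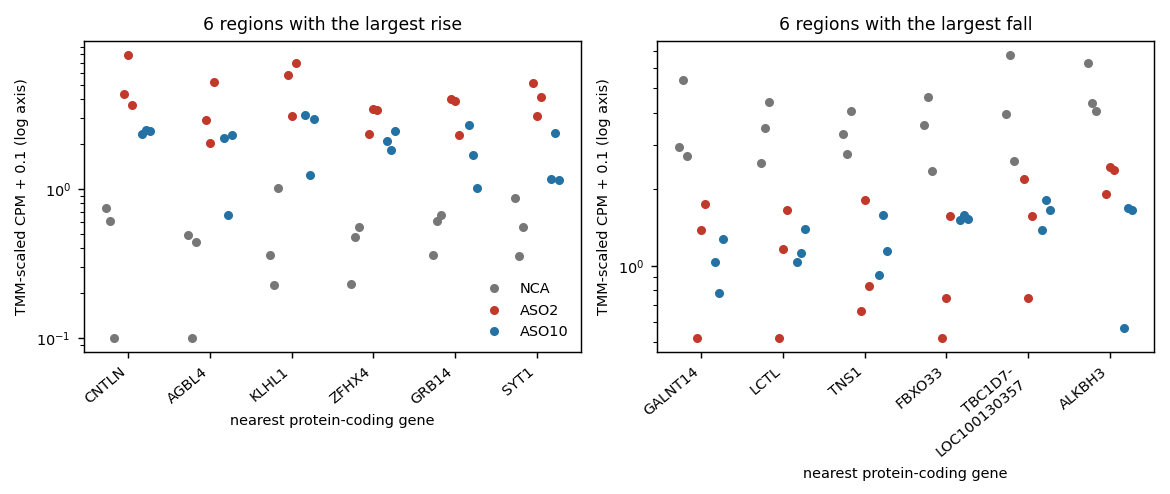
CPM plus 0.1 on a log axis for each of the 9 libraries in the 6 regions with the largest rise and the 6 with the largest fall. In each region all 6 ASO points lie on one side of the 3 NCA points, and the NCA points of the rising regions sit at 0.908 CPM or less.

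Several higher regions often shared a long gene. The 1176 higher regions within 100 kb of a protein-coding gene had 858 nearest genes, of which 189 had at least 2 such regions and 31 at least 4. DPYD, which encodes the rate-limiting enzyme of pyrimidine breakdown and spans 843 kb on chromosome 1, had most, with 9 of 60 tested regions. The CPM summed over these 9 was 61.8, 67.8 and 71.1 in NCA, 119, 135 and 111 under ASO2, and 105, 96.1 and 105 under ASO10. Its other 51 regions had a median log2 fold change of 0.28, and their sum was 163 ± 8.05 CPM (SD, n = 3) in NCA, against 204 ± 8.98 with ASO2 and 192 ± 11.1 with ASO10. The rest of the gene thus lay above NCA too.

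CDH12, a type II cadherin gene of 1103 kb on chromosome 5, had 8 higher regions of 27. Their summed CPM was 31.8, 27.9 and 28.4 in NCA, 73.0, 74.6 and 69.9 under ASO2, and 57.5, 57.2 and 52.9 under ASO10. Its 18 uncalled regions summed to 76.5 ± 5.83 CPM (SD, n = 3) in NCA, against 100.0 ± 4.81 with ASO2 and 81.5 ± 1.92 with ASO10. The called regions were chosen for lying apart, so the contrast between the called and uncalled sums follows from the choice. CADM2, which encodes a synaptic cell adhesion molecule on chromosome 3, had 8 of 64, NAALADL2, a peptidase-like gene on chromosome 3, 7 of 61, EYS, a photoreceptor matrix gene on chromosome 6, 7 of 38, and MACROD2, an ADP-ribose hydrolase gene on chromosome 20, 6 of 163. Over these 6 genes 45 regions were higher and none was lower among those called and separated. The genes were chosen for their higher regions, so this number follows from the choice. Over all tested regions within 100 kb of a gene, 1.24% were higher and 0.432% lower. Further regions of the 6 genes were called without being separated, 1 of them lower, at CDH12, and the others higher. The best single region of each of the 6 genes was called in every fit run, except that of EYS (log2 fold change 0.86), which lost its call without NCA replicate 1 (0.71, adjusted p = 0.0984). At MACROD2 the best region (15772791 to 15773749) had 8.89, 7.31 and 9.30 CPM in NCA, 20.3, 27.5 and 26.0 under ASO2, and 16.2, 14.8 and 17.4 under ASO10 (log2 fold change 1.23 ± 0.15, adjusted p = 1.3e-11).

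**Figure D3:**
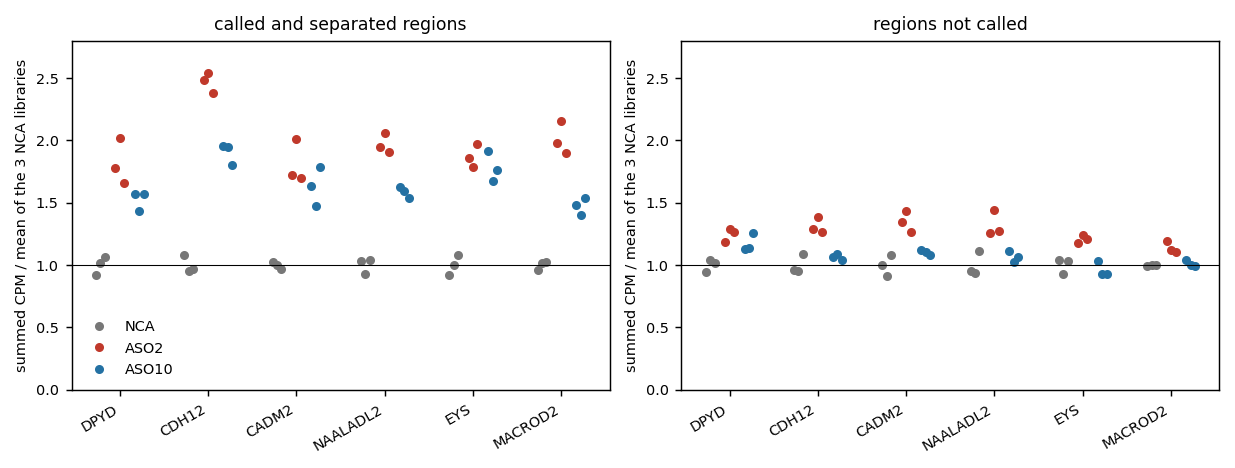
CPM summed over the called and separated regions (left) and over the uncalled regions (right) of the 6 genes with most higher regions, divided by the mean of the 3 NCA libraries (y axis), with 1 point per library. On the left every ASO library lies above every NCA library by construction, while on the right the ASO2 libraries sit above the NCA libraries and the ASO10 libraries closer to them.

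Lower regions seldom gathered. The 409 lower regions within 100 kb of a gene had 381 nearest genes, of which 24 had at least 2 and none had 4. ETS1, a transcription factor gene on chromosome 11, had 3 of 35. A further 3 regions there were called higher and 1 lower without being separated. The best region, 128616008 to 128616524, 28.4 kb beyond the gene, had 22.2, 15.8 and 15.2 CPM in NCA, 9.68, 7.40 and 7.52 under ASO2, and 9.15, 5.46 and 8.72 under ASO10. No ASO library reached the lowest NCA library, and both oligonucleotides lowered it about as far (log2 fold change -1.15 ± 0.16, adjusted p = 1.7e-09). ASO2 differed from ASO10 there by 0.068 ± 0.20 on the log2 scale, which missed the threshold. The 28 uncalled regions around ETS1 summed to 178 ± 17.5 CPM (SD, n = 3) in NCA, against 176 ± 4.31 with ASO2 and 170.0 ± 5.23 with ASO10.

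TENM4, which encodes a teneurin, a transmembrane protein of neuronal wiring, had 3 lower regions of 75. In its best region (chromosome 11, 78981079 to 78982900) NCA had 33.0, 28.7 and 30.7 CPM, ASO2 14.6, 15.6 and 15.5, and ASO10 23, 22.8 and 21.6. The 3 groups formed separate levels, with ASO2 lowest (log2 fold change -0.74 ± 0.12, adjusted p = 1.0e-06). DYNC1I1, a dynein intermediate chain gene of chromosome 7, and FAM163A, a chromosome 1 gene also known as neuroblastoma-derived secretory protein, had 3 of 27 and 3 of 11. Their best regions fell by 0.54 ± 0.11 (adjusted p = 4.2e-04) and 0.59 ± 0.13 (adjusted p = 4.6e-04) on the log2 scale. TLN2, a talin gene linking integrins to actin on chromosome 15, had 2 of 44. In its best region (62622798 to 62623141) NCA had 6.18, 5.93 and 6.69 CPM and no ASO library exceeded 2.81. PPP3CA, the catalytic subunit of calcineurin, had 2 lower regions and 1 higher one of 24, and the call of its best lower region was lost in 6 of 9 fits that left out a library, with adjusted p up to 0.235 (without NCA replicate 2).

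**Figure D4:**
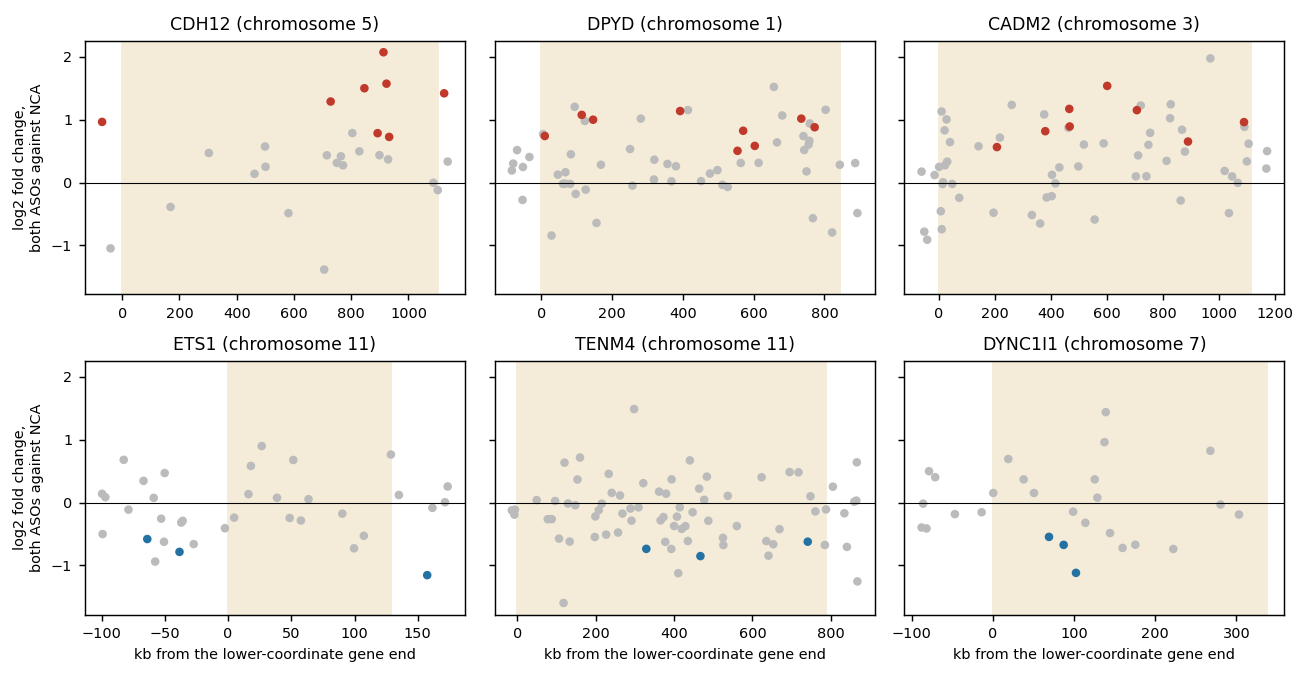
Pooled log2 fold change (y axis) of each tested region within 100 kb of 6 genes, by distance in kb from the gene's lower-coordinate end (x axis), with the gene shaded. Red points are called higher and separated, blue points called lower and separated, and grey points all other tested regions, and the 8 red points of CDH12 and of CADM2 are spread along the genes.

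Of the 23751 tested regions over 100 kb from a protein-coding gene, 658 were higher (2.77%). The loci with most of them are given beside that share. Among regions over 100 kb from a protein-coding gene, counted after the values were seen, 13 of 55 with TENM3, a teneurin gene on chromosome 4, as nearest gene were higher, at 187 to 1894 kb. The counts were 10 of 54 for SLC10A2, the ileal bile acid transporter gene on chromosome 13, 9 of 116 for BRINP3 on chromosome 1, 8 of 49 for MAT2B on chromosome 5, 8 of 45 for KLHL1 on chromosome 13 and 8 of 81 for TMEFF2 on chromosome 2. All 55 tested regions around TENM3 had a median log2 fold change of 0.63, and 47 of them were above 0. At BRINP3 the median over all 116 was 0.12, and 68 of them were above 0. The higher regions were chosen for lying apart, so their contrast with the surroundings follows from the choice. No gene had more than 2 lower regions at such a distance.

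Gene ends with large changes involved other genes. ACTN1, the gene of the actin crosslinker alpha-actinin, on chromosome 14 (68873195 to 68873826) had 5.67, 4.03 and 3.97 CPM in NCA, 10.7, 10.2 and 12.4 under ASO2, and 8.80, 9.67 and 8.46 under ASO10 (log2 fold change 1.14 ± 0.21, adjusted p = 2.1e-05). LOC124909486 on chromosome 3 (113206808 to 113207731) rose by 1.11 ± 0.16 (adjusted p = 2.8e-08). Both calls were kept in every fit. The other rises at gene ends were less firm. A region at GPM6B, a neuronal membrane glycoprotein gene, that lies inside OFD1 on chromosome X (log2 fold change 1.23) lost its call without NCA replicate 1 (adjusted p = 0.0932), NCA replicate 2 (0.139) or ASO2 replicate 2 (0.0804). XPC, the sensor of nucleotide excision repair (0.88), lost it without NCA replicate 2 (0.232) or NCA replicate 3 (0.112), and CAMKMT, a calmodulin methyltransferase gene (0.87), without NCA replicate 1 (0.108) or NCA replicate 2 (0.0637).

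The 5 largest falls at gene ends were at APOE, the apolipoprotein E gene (-2.28 ± 0.60, adjusted p = 0.00963), LGI2 (-1.37), ADRB3, a beta-adrenergic receptor gene (-1.33 ± 0.28, adjusted p = 3.6e-04), ST14, a membrane serine protease gene (-1.27), and PARD3, a cell polarity gene (-1.14). The APOE region was narrow and weak, with 2.32, 3.66 and 1.48 CPM in NCA and 0.114 to 0.826 CPM in the ASO libraries. Each lost its call without some library. APOE lost it without NCA replicate 1 (adjusted p = 0.0582) or NCA replicate 2 (0.273), ADRB3 without NCA replicate 3 (0.0758), ST14 without NCA replicate 1 (0.242), and PARD3 in 7 of the 9 fits, up to 0.208 without NCA replicate 2.

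The gene lists asked how regions near functionally related genes were placed among the calls. Within 100 kb of any protein-coding gene, 1176 of 94653 tested regions were higher (1.24%) and 409 lower (0.432%), with a median log2 fold change of -0.016. Near the 62 genes of neuronal adhesion, 50 of 1276 regions were higher (3.92%) and 7 lower (0.549%), and the median was 0.098. Near the 43 axon guidance genes, 33 of 895 were higher (3.69%) and 3 lower (0.335%), with a median of 0.064. Regions of a gene share its locus, and 20 and 13 genes carried the higher regions. CDH12 and CADM2 alone supplied 16 of the 50. Gene length was not matched in these shares. Inside protein-coding genes over 500 kb long, whatever their function, 268 of 8635 tested regions were higher and 33 lower. No test was made of the list shares.

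**Figure D5:**
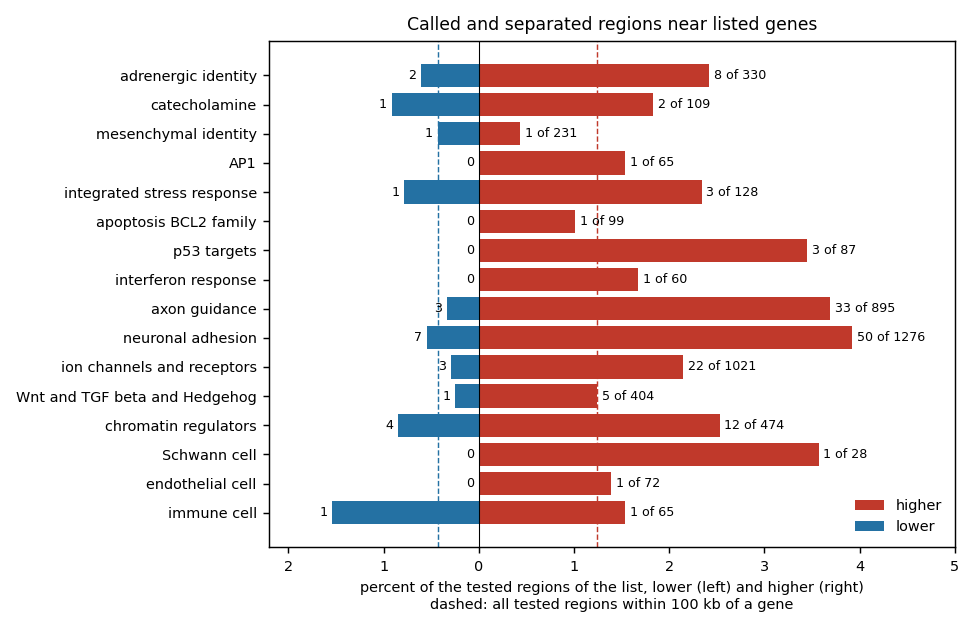
Percent of regions near the genes of each of 16 lists that were called and separated, higher and lower, beside the shares over all regions within 100 kb of a protein-coding gene (1.24% and 0.432%). Neuronal adhesion stands at 3.92% and axon guidance at 3.69% higher, and the shares are not matched for gene length.

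Among adhesion genes the best regions were at CDH12 and at ADGRL3, the latrophilin-3 receptor of synapses, and, in the other direction, TENM4. The CDH12 region (chromosome 5, 22673380 to 22674358) had 5.41, 2.14 and 1.13 CPM in NCA, 10.9, 10.1 and 8.26 under ASO2, and 7.98, 7.17 and 7.16 under ASO10 (log2 fold change 1.57 ± 0.24, adjusted p = 1.4e-07). NCA replicate 1 was the highest control there. The log2 fold change was 2.38 without NCA replicate 1 and 1.17 without NCA replicate 3, and the call held in both. The ADGRL3 region (chromosome 4, 61782816 to 61783425) had 2.71, 1.77 and 3.18 CPM in NCA, 10.2, 10.3 and 11.2 under ASO2, and 5.16, 5.12 and 5.47 under ASO10 (log2 fold change 1.54 ± 0.25, adjusted p = 1.5e-06).

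Among axon guidance genes, which encode secreted cues and their receptors, SLIT3 stood first by adjusted p. This ligand gene's region on chromosome 5 (168897860 to 168898940) had 9.28, 5.04 and 6.47 CPM in NCA, 14.7, 18.7 and 17.7 under ASO2, and 16.9, 17.6 and 16.7 under ASO10 (log2 fold change 1.30 ± 0.16, adjusted p = 3.3e-11). The 2 oligonucleotides gave the same level within their spread, with a difference of 0.0039 ± 0.16. A region 21.0 kb from SEMA3D, a secreted semaphorin gene on chromosome 7 (85271258 to 85272374), rose by 1.30 ± 0.19 (adjusted p = 2.8e-08), and a region inside ROBO2, a SLIT receptor gene on chromosome 3 (76643489 to 76644793), by 0.83 ± 0.14 (adjusted p = 2.0e-06). ROBO2 had 6 higher regions in all, SEMA3D and EPHA6 5 each, and ROBO1 and UNC5C 3 each. The lower ones were at PLXNA2, SEMA6A and SLIT3, 1 each.

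Ion channel and neurotransmitter receptor genes had 22 higher and 3 lower of 1021 regions (2.15% and 0.294%), and chromatin regulators 12 and 4 of 474 (2.53% and 0.844%). Over all tested regions within 100 kb of a gene the shares were 1.24% and 0.432%. The channel genes were led by KCNH5, a potassium channel gene with 4 higher regions (best 1.2 ± 0.19, adjusted p = 4.4e-07), CACNA2D1, a calcium channel subunit gene with 3 (1.06 ± 0.17, adjusted p = 7.1e-07), and GRM8, a glutamate receptor gene with 3 (1.28 ± 0.23, adjusted p = 1.3e-05). At KCNH5 (chromosome 14, 62844346 to 62845367) NCA had 4.12, 6.18 and 5.67 CPM, ASO2 13.2, 14.9 and 10.5, and ASO10 13.6, 11.3 and 10.2. Among chromatin genes the best regions were inside MECOM (1.16 ± 0.16, adjusted p = 3.3e-09), HDAC9 (0.91 ± 0.16, adjusted p = 1.2e-05) and KDM4C (1.12 ± 0.22, adjusted p = 1.4e-04). MECOM, HDAC9 and KDM4C each had 1 lower region as well, so regions of 1 gene went both ways.

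The adrenergic identity factors, which define the state of these cells, had 8 higher and 2 lower of 330 regions (2.42% and 0.606%), with a median of 0.046. The shares over all tested regions within 100 kb of a gene were 1.24% and 0.432%. The higher regions of this list were at 7 of the 25 genes. A region inside DACH1 on chromosome 13 (71524191 to 71525236) had 15.6, 14.6 and 19.4 CPM in NCA, 24.6, 30.3 and 23.7 under ASO2, and 30.3, 32.7 and 22.1 under ASO10 (log2 fold change 0.72 ± 0.13, adjusted p = 9.7e-06). A region 94.0 kb from ISL1, a LIM homeobox gene, on chromosome 5 (51488746 to 51489553) rose by 0.83 ± 0.15 (adjusted p = 2.4e-05), and a region inside EYA1 on chromosome 8 by 0.81 ± 0.15 (adjusted p = 3.9e-05). The lower regions were at KLF13 and KLF7. The mesenchymal factors, which mark the other neuroblastoma state, had 1 higher and 1 lower of 231 regions (0.433% each). The higher one, inside WWTR1 (0.59), lost its call without NCA replicate 2 (adjusted p = 0.0710), and the lower one, 81.8 kb from TBX18 (-0.75), in 7 of the 9 fits that left out a library, up to 0.287 without NCA replicate 2.

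The remaining lists had at most 5 higher regions each. The Wnt, TGF-beta and Hedgehog list had 5 higher and 1 lower of 404 regions (1.24% and 0.248%). All tested regions within 100 kb of a gene had shares of 1.24% and 0.432%. TCF7L2, a transcription factor of Wnt signalling, held both the best higher region (chromosome 10, 112984338 to 112985304, log2 fold change 1.35 ± 0.20, adjusted p = 3.6e-08) and the lower one, and SFRP1, a secreted Wnt inhibitor, 2 higher regions (best 0.91 ± 0.19, adjusted p = 2.9e-04). At DKK1, another Wnt inhibitor, the call (0.70) was lost in 6 of the 9 fits, up to 0.148 without NCA replicate 2. The integrated stress response had 3 higher and 1 lower of 128 regions (2.34% and 0.781%). They were near TRIB3, CEBPB and VLDLR, and the lower one near PSAT1. The region 92.7 kb from CEBPB on chromosome 20 (50285438 to 50286892) rose by 0.55 ± 0.13 (adjusted p = 0.00328). The regions 6.58 kb from TRIB3 (0.99) and 47.1 kb from VLDLR (0.61) lost their calls without NCA replicate 2 (adjusted p = 0.108 and 0.0574).

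For the lists that follow, the shares over all tested regions within 100 kb of a gene were 1.24% higher and 0.432% lower. The p53 targets had 3 higher of 87 regions (3.45%), with a median log2 fold change of -0.056 and 43.7% of regions above 0. Near AEN, an apoptotic nuclease gene, lay 2 of the 3 (best 1.33, lost without NCA replicate 1 at adjusted p = 0.0582). The other was at XPC, described above. The interferon response had 1 of 60 (1.67%), 10.7 kb from DDX60 on chromosome 4 (168336668 to 168337821). This region had 7.09, 6.68 and 8.62 CPM in NCA, 14.9, 20.4 and 16 under ASO2, and 18.2, 12.4 and 14.3 under ASO10 (log2 fold change 1.09 ± 0.16, adjusted p = 6.4e-08). The apoptosis list had 1 of 99 (1.01%), 55.7 kb from the caspase inhibitor gene XIAP (0.80 ± 0.19, adjusted p = 0.00238). The AP-1 list had 1 of 65 (1.54%), at JUNB (0.47), which lost its call without NCA replicate 2 (adjusted p = 0.177), NCA replicate 3 (0.135) or ASO10 replicate 2 (0.110). The catecholamine and vesicle genes had 2 higher regions (1.83%), near SCG2 and CHGB, and 1 lower (0.917%), near SCG2, of 109. The SCG2 call (0.61) was lost without NCA replicate 2 (0.255) or ASO10 replicate 1 (0.0660), and the CHGB call (0.93) in all 9 fits that left out a library, at 0.0588 to 0.178.

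Markers of other cell types were checked in the same way. Regions at the ends of 6 of 7 adrenergic markers summed to 96.6 to 104 CPM in NCA and 85.3 to 110.0 in the ASO libraries. For 3 of 5 Schwann cell markers the sums were 24.7 to 32.9 and 23.5 to 29.2, for 3 of 5 endothelial markers 6.96 to 9.58 and 6.76 to 9.82, and for 3 of 5 immune markers 9.92 to 14.9 and 8.80 to 15.4, so the ranges overlapped in all 4 lists. No region lay at the ends of TH, the defining enzyme gene of catecholamine synthesis, or at the endothelial genes CDH5 and TEK or the T cell gene CD3E. The wider marker lists are set against the same shares, 1.24% higher and 0.432% lower. The Schwann cell list had 1 higher of 28 regions (3.57%), near MBP (0.83, lost without NCA replicate 3 at adjusted p = 0.0502). The endothelial list had 1 of 72 (1.39%), in FLT1 (1.59, lost without ASO2 replicate 2 at 0.0833 or NCA replicate 1 at 0.0612). The immune list had 1 higher and 1 lower of 65 (1.54% each). The higher one was in PTPRC (0.78 ± 0.19, adjusted p = 0.00401). Near CD2 lay the lower one (-0.50). Its call was lost without NCA replicate 2 (adjusted p = 0.249), ASO10 replicate 2 (0.0544) or ASO2 replicate 1 (0.0555).

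Within the pooled difference the oligonucleotides were unequal. The higher regions had a median log2 fold change of 1.03 under ASO2 and 0.69 under ASO10, and 1487 of the 1834 (81.1%) lay farther from NCA under ASO2. For the lower regions the medians were -0.76 and -0.73, and 285 of 502 (56.8%) lay farther under ASO2. These comparisons share the NCA libraries. The direct test of ASO2 against ASO10 leaves the NCA libraries out of its contrast, although they enter the estimate of spread. It called 3.23% of all tested regions, 242 of the higher ones (13.2%) and 5 of the lower ones (0.996%). The median was 3.19 log2 CPM over the higher regions, 2.84 over the lower ones and 1.51 over all tested. The part of depth in these shares was not tested. Of the 242, 231 were higher under ASO2 and 11 under ASO10.

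The targeted gene itself did not pass the test. LINC00682, taken as NESPR from general knowledge since the labels do not pair the names, is overlapped by the region 41881456 to 41883212 on chromosome 4. It had 17.9, 12.4 and 15.9 CPM in NCA, 11.6, 12.2 and 12.9 under ASO2, and 18.1, 15.1 and 17.4 under ASO10. The groups overlapped, and the pooled log2 fold change was -0.094 ± 0.14 (adjusted p = 0.841), which became 0.022 without NCA replicate 1.

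The share of a library's counts in each of the 4 position classes was compared over libraries, with 1 value each. Counts within 100 kb of a gene but outside it made up 18.6%, 18.6% and 18.4% in NCA, 18.0%, 17.8% and 18.4% under ASO2, and 17.9%, 18.2% and 17.8% under ASO10. The mean share under the ASOs minus that in NCA was -0.484 percentage points (two-sided exact permutation p = 0.0238, the smallest that 84 splits allow, and 0.0952 after adjustment over the 4 classes). The differences at gene ends (0.387), inside genes (0.283) and over 100 kb away (-0.186) had exact permutation p-values of 0.738, 0.762 and 0.690. Inside genes the oligonucleotides lay on opposite sides of NCA, at 33.1% to 33.2% under ASO2 and 30.0% to 31.0% under ASO10 against 31.1% to 31.8% in NCA, and the groups did not overlap. At gene ends the ASO2 mean was 24.6 ± 1.23% and the ASO10 mean 27.1 ± 0.742%, on either side of NCA at 25.5 ± 0.911% (SD, n = 3 each). Over 100 kb away the difference became 0.336 once the amplified stretch around MYCN and the most counted region, on chromosome 1, were left out. This setting was chosen after seeing the data. Neither 0.336 nor the -0.186 over all regions had p under 0.05 in the exact permutation test, so no change in this share was shown in either direction.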

How the data were processed

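ATAC-seq of tagmented genomic DNA was analysed in 9 libraries, grouped by the oligonucleotide named in their labels, although the labels give the molecule as RNA. The authors deposited whole-number counts, without normalization, for 1 set of regions over all libraries. Per the submitters' processing notes, FastQC, Bowtie2 2.2.6, SAMtools, MACS2 2.1.2, DESeq2 1.42.0 and hg38 were used. How fragments were filtered, shifted or counted, and whether peaks were called on pooled libraries, is not given in the sources used here, so the regions may depend on how many fragments each group gave. Coordinates are GRCh38 as in the region names.

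Regions passing filterByExpr by group were scaled by TMM and fitted in R 4.3.3 by the quasi-likelihood method of edgeR 4.0.16 (robust, all 9 libraries, contrast of the mean of ASO2 and ASO10 against NCA, Benjamini-Hochberg over 119417 regions). The biological coefficient of variation was 23.5%. A region was separated when all 6 ASO libraries lay strictly on one side of the 3 NCA libraries in TMM-scaled CPM. The same NCA libraries serve both oligonucleotides. Genes came from a RefSeq table (GRCh38.p14) without strand, so either gene end was used. Totals limit precision, mostly in weak regions. Replicates differed by more than sampling noise. Position shares of the 6 ASO and 3 NCA libraries were set against each other by an exact permutation test, two-sided.

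Named regions were, among those called and separated outside unplaced sequence and the amplified stretch at MYCN, the 6 largest changes each way over 1 log2 CPM, the best region of the 6 genes with most regions each way, the 5 largest each way at gene ends, and up to 3 genes of each of 16 lists by adjusted p, the last without that restriction on place. The members, rule and lists were chosen with earlier results of these data known. Alternatives were DESeq2 1.42.0, limma-voom (limma 3.58.1), RLE factors, total counts, loess offsets (span 0.3), a minimum of 10 counts per library, no filter, both ASOs as 1 group, a replicate block, an absolute log2 fold change over 1, other separations and windows, and leaving out each library. Without a genome, sequence came only from RefSeq promoter windows.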

Additional observations from a re-analysis of the deposited data

Results flagged for a closer look

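At 9 named regions the direct comparison of ASO2 with ASO10, by edgeR's quasi-likelihood test adjusted over all tested regions, passed the threshold, although all 6 ASO libraries lay on one side of NCA. The log2 fold change of ASO2 over ASO10 was 1.28 at KDM4C, 1.13 at GRM8, 1.01 at ADGRL3, 0.89 at CAMKMT, 0.87 at SEMA3D, 0.62 at MACROD2, 0.56 near VLDLR and 0.55 near ISL1, so that in these 8 the rise was larger under ASO2. At TENM4 it was -0.56, and there the fall was larger under ASO2. The adjusted p ran from 1.0e-05 at KDM4C to 0.0296 near ISL1. At KDM4C the ASO2 libraries had 13.8, 15.6 and 10.0 CPM and the ASO10 libraries 5.63, 5.01 and 5.47, against 4.64, 3.28 and 3.63 in NCA.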

How the results depend on the processing

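Of 1422 values recomputed under an alternative, 1254 were classed as the same in direction and call, or as of similar size for counts. Similar size was a loose class. It held 1985 higher calls without NCA replicate 3 against 2866. It also held 670 lower called and separated regions with at least 10 counts in every library against 502. Against 2866 higher and 709 lower calls, DESeq2 gave 398 lower, limma-voom 1391 higher and 439 lower, loess offsets 1106 lower, at least 10 counts in every library 1136 lower, both ASOs as 1 group 313 lower, and an absolute log2 fold change over 1 gave 971 higher and 182 lower. Against 1834 higher and 502 lower called and separated regions, DESeq2 gave 331 lower, limma-voom 1063 higher and 303 lower, both ASOs as 1 group 256 lower, an absolute log2 fold change over 1 gave 673 and 136, and separation by at least 1.2 times, added after seeing the data, 804 and 190. Leaving out each library gave 1549 (without NCA replicate 2) to 2718 higher calls and 301 (without NCA replicate 1) to 619 lower calls, and 1338 to 1981 higher and 277 to 434 lower called and separated regions. Separation was read from the libraries kept, and 1068 to 1651 higher and 186 to 359 lower regions were also among the 1834 and 502. Among the named regions, 4 (without ASO10 replicate 2) to 9 differed between ASO2 and ASO10 in these fits. Fits without an NCA library compare 6 libraries with 2. The cause of the other changes was not tested. Leaving out each library gave a share of higher calls of 78.5% to 84.8%, against 80.2%. Under the other settings it ran from 70.7% with loess offsets to 88.4% with both ASOs as 1 group. At least 10 counts in every library gave 72.0% and total counts 74.9%.

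In percentage points, the difference in the share of counts ran from -0.138 (without NCA replicate 2) to 0.897 at gene ends, with -0.035 without ASO10 replicate 1, and from -0.0033 (without ASO2 replicate 2) to 0.645 inside genes. Over 100 kb from a gene it ran from -0.476 to 0.169 (without NCA replicate 2), with 0.0443 without ASO2 replicate 2, and was 0.336 without the amplified stretch and the most counted region. At LINC00682 the log2 fold change ran from -0.23 (without NCA replicate 2) to 0.022 (without NCA replicate 1). Deviations of same-numbered libraries from their group means correlated at -0.0363 to 0.0126, so no effect shared by replicate number was seen. These correlations cannot say whether same-numbered libraries were prepared together. A replicate block gave 2651 higher and 591 lower calls and ended the calls at TBX18 and SLC25A21 among those named. With loess offsets none of the named calls was lost, and with limma-voom 20 were.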
